A study of Mus musculus with 12 samples.

Results

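Expression of 34 genes of endoplasmic reticulum (ER) protein folding, the unfolded protein response and early secretion was measured in mouse liver by RNA sequencing. The members were taken by gene symbol from a table of 41128 genes, and all 34 were found. They comprised 15 chaperones and folding enzymes, 7 genes of ER-associated degradation, 7 stress sensors and stress factors, and 5 genes of the translocon and of COPII vesicles. The livers came from 12 C57BL/6 mice aged 6 weeks, each sequenced as 1 library. Germ-free (GF) mice had lived in sterile isolators, and conventionalized (CV) mice were littermates that left the isolators at weaning, on day 21, and then lived for 3 weeks in cages with soiled bedding as the source of microbes. Each condition held 3 males and 3 females by label, so the groups were GF males, CV males, GF females and CV females. The comparison of CV with GF asked how these genes differ between colonized and microbe-free livers, within each sex and over both.

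The hepatocyte secretes most proteins of blood plasma, and these proteins enter the ER through the Sec61 channel, fold with the help of chaperones and protein disulfide isomerases, and leave in vesicles coated with COPII. Proteins that fail to fold are passed back to the cytosol by the Hrd1 complex and degraded. Unfolded protein is sensed by 3 membrane proteins of the ER, which the genes Ern1 (IRE1), Eif2ak3 (PERK) and Atf6 encode. IRE1 splices the RNA of the transcription factor Xbp1, PERK raises translation of the transcription factor Atf4, and Atf6 is released as a factor after cleavage. Splicing, phosphorylation and cleavage leave no trace in a count of reads per gene, so the values below are RNA levels of these genes and not activities of the sensors.

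The ER stress response element (ERSE) is the promoter element through which ATF6 and XBP1 are known to act, and of 4 elements searched it was the one found in most members. Promoters from RefSeq on build GRCm38.p6 were matched by symbol for 29 of the 34 members, and those of Derl1, Hyou1, Manf, Atf6 and Sec61a1 were not matched. ERSE was searched on both strands as CCAAT, 9 bases of any kind and CCACG, in the 250 bases before each start. It was present in 9 of the 29 members, and in 35 of 27025 genes (0.13%) of the whole promoter table. 7 of these 9 were chaperones or folding enzymes (Hspa5, Hsp90b1, Pdia6, Calr, Canx, Creld2 and Dnajc3), and the others were Derl3 and Syvn1. ERSE-II (ATTGG, 1 base, CCACG) was found in Herpud1 alone among the members and in 0.037% of all genes, UPRE (TGACGTGG) in Sec24d alone and in 0.603%, and CARE (TGATGCAA), the element read by ATF4 and CHOP, in Herpud1 alone and in 0.918%. The CCACG part is shared by both ERSE forms and, read on the opposite strand, lies within UPRE, but no member held more than 1 of these 3. The following 80-base windows are shown because they hold the elements of members whose RNA went in different directions. Each is written on the strand of its gene, 5′ to 3′, with the parts of the element in capitals, and Calr and Creld2 carry the element on the opposite strand.
Pdia6: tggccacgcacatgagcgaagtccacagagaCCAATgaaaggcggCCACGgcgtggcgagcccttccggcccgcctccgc
Calr: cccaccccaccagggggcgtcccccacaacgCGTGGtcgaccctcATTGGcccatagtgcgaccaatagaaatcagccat
Canx: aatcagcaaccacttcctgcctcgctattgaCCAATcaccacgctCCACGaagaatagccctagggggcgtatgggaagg
Syvn1: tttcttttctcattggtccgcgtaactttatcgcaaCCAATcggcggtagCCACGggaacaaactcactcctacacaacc
Hspa5: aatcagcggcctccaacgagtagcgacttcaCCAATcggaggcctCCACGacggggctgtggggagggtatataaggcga
Creld2: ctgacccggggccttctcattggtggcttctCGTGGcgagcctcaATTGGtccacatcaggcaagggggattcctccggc
Dnajc3: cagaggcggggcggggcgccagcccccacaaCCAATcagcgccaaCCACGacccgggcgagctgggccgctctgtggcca
Herpud1: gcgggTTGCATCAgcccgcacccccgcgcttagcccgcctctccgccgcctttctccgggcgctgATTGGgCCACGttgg

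The windows lie at chr12:17266460-17266539 (plus strand) for Pdia6, chr8:84847045-84847124 (minus) for Calr, chr11:50325770-50325849 (minus) for Canx, chr19:6046496-6046575 (plus) for Syvn1, chr2:34771994-34772073 (plus) for Hspa5, chr15:88819489-88819568 (plus) for Creld2, chr14:118937796-118937875 (plus) for Dnajc3 and chr8:94386312-94386391 (plus) for Herpud1. ERSE began 98 bases before the start of Pdia6, 65 before that of Hspa5 and 44 before that of Syvn1. In Herpud1 the first capitals are CARE on the opposite strand and the last are ERSE-II. A match describes these letters and does not show that a factor binds there.

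Recovered reads per library ranged from 5993619 to 15290835. 9 abundant loci (Lars2, mt-Rnr1, mt-Rnr2, mt-Co1, mt-Cytb, Mir6236 and the predicted genes Gm23935, Gm15564 and Gm42418) held 44.8 to 71.4% of the reads in GF and 6.63 to 23.6% in CV libraries, so the reads on other genes were fewer in every GF library (1714232 to 4923830) than in any CV library (6792825 to 14274016). Lars2, mt-Rnr1, mt-Rnr2 and Mir6236 were taken by name. The others were predicted genes or genes without a deposited symbol that held on average at least 1% of GF reads. Because this rule used GF libraries alone, the difference in share between GF and CV is in part set by it. Scaling to reads outside these loci rests on the same choice. The library labelled CV male 3 had a normalised read count of 2382 for Xist and 0 reads on Y-linked genes, which goes against its label as male, and results are given with and without it. CV males 2 and 3 stood apart from the other 4 CV libraries, since the abundant loci took 22.7 and 23.6% of their reads against at most 8.41% in the others. The summed normalised read count of 10 hepatocyte markers, which include albumin and apolipoproteins, was 1.2e+05 to 4.715e+05 in GF and 4.168e+05 to 6.558e+05 in CV libraries, and the part of this difference in the results below was not tested. Alb and Apoa1 had the highest means of these markers in every group. Cps1 had lower means in CV than in GF in males (9181 against 10670) and females (8717 against 10300). Tat was lower in CV in males alone (7066 against 10110). The other markers had higher means in CV in both sexes. Of other secretory cells, 13 exocrine pancreas markers summed to 37.7 to 294 in GF and 173 to 363 in CV libraries, nearly all of it from Cela1, with Try5 and Amy2a5 at 0 in every library. The 8 plasma cell markers summed to 228 to 513 in GF and 364 to 1154 in CV libraries, most of it from Sdc1, which hepatocytes also express, while Jchain, Ighm and Igkc had lower means in CV than in GF in both sexes. Igha was at 0 in GF and had a mean of 11.7 in CV males and 12.1 in CV females. The sum of 6 blood markers was 2781 to 14040 in GF males, 2707 to 3160 in CV males, 5291 to 32900 in GF females and 916 to 1994 in CV females. The 8 Kupffer and myeloid markers summed to 998 to 1146 in GF males, 1519 to 2729 in CV males, 1721 to 2184 in GF females and 2670 to 3183 in CV females. The part of these cells in the results was not tested. In whole liver, fewer cells of a type and less RNA per cell cannot be told apart.

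Over both sexes, 15 of the 34 members were higher in CV livers and 6 were lower. Here and below, a member that rose, fell or was called higher or lower had an adjusted p under 0.05 in limma, fitted on log2(normalised read count + 1) of the 11782 genes with a mean of at least 10 and adjusted by the Benjamini-Hochberg method. The background was large, since 32.3% of all genes tested were called higher and 28.7% lower. The median log2 change was 0.22 for the members and 0.07 for all genes. All 34 members passed the filter on low values. By role, 3 of the 5 translocon and COPII genes were higher and 0 lower, 8 of the 15 chaperones were higher and 0 lower, 2 of the 7 stress sensors and factors were higher and 4 lower, and 2 of the 7 degradation genes were higher and 2 lower. With reads outside the abundant loci, 3 chaperones were higher and 4 lower (Hspa5, Hsp90b1, Creld2 and Hyou1), and after removal of a trend on transcript length and GC content 5 were higher and 2 lower (Hsp90b1 and Creld2). With the deposited factors no chaperone fell at an unadjusted p under 0.05 in limma. On recovered reads, each with its own normalisation, edgeR called no chaperone lower and DESeq2 called Hsp90b1 lower. No translocon or COPII gene fell at an unadjusted p under 0.05 in limma with the deposited factors, and edgeR and DESeq2 each called Sec23b lower. With reads outside the abundant loci 1 translocon or COPII gene was higher (Sar1b) and 2 were lower (Sec24d and Sec23b). Without CV male 3 the members were 15 higher and 4 lower, Sel1l and Eif2ak3 being lost. The libraries did not overlap within either sex for 5 members that were higher in CV (Pdia6, Canx, Derl1, Trib3 and Sar1b) and 3 that were lower (Syvn1, Ddit3 and Ern1), against 18.6% and 17.9% of all genes tested.

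**Figure D1:**
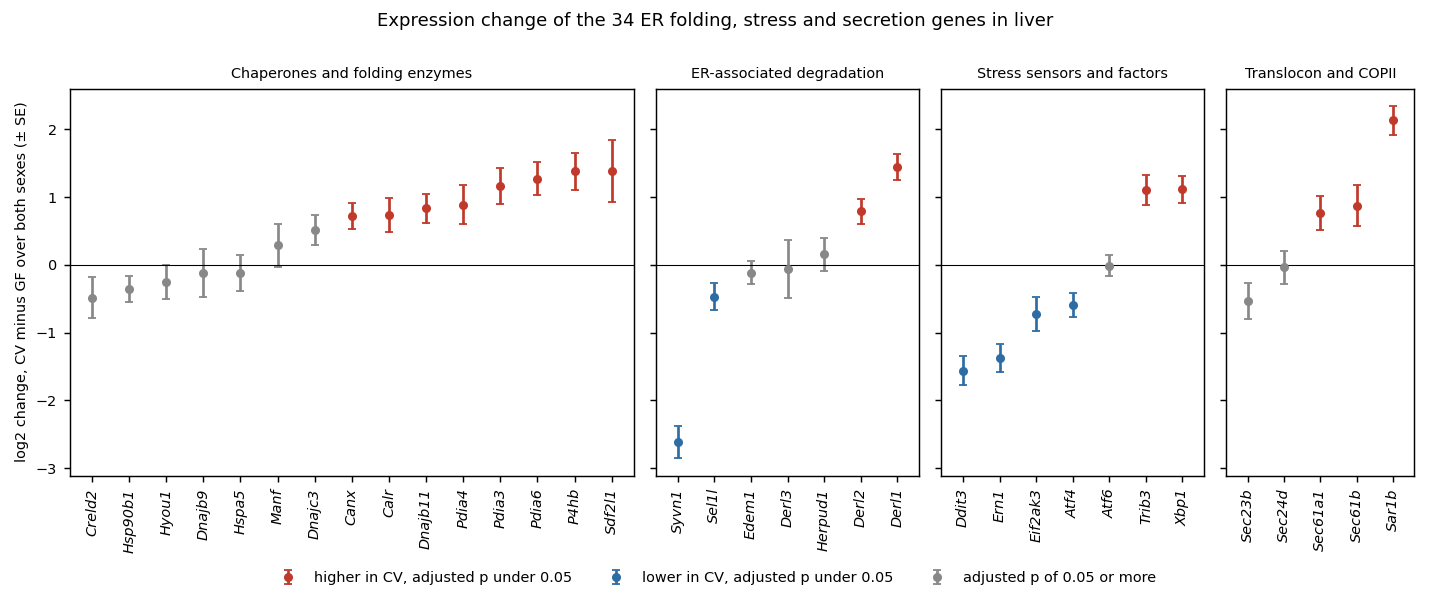
Log2 change of each member, CV minus GF over both sexes, with its SE from limma (n = 6 per condition), in 4 panels by role. Red points were higher, blue points lower and grey points not called, and the panels of sensors and of degradation genes reach furthest below 0, to -2.61 for Syvn1, while Sar1b is highest at 2.13.

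Scaling moved all genes together. The median of all genes was 0.63 when the libraries were scaled to all reads and -0.46 when they were scaled to reads outside the abundant loci. With all reads 19 members were higher and 3 lower (all genes 50.3% and 13.7%), and the other scaling gave 6 higher and 14 lower (15.8% and 44.4%). The 15 members that rose stayed above 0 under both, but 6 remained called with reads outside the loci. Of the 6 that fell, Sel1l alone moved above 0, to 0.09, when all reads were used. All 15 that rose stayed above the median of all genes under both scalings, and all 6 that fell stayed below it. That could hardly be otherwise, since a scaling shifts every gene by nearly the same amount, so it adds no support to the calls. With all reads Syvn1, Ddit3 and Ern1 were called lower, and Sel1l, Atf4 (-0.03, adjusted p = 0.891) and Eif2ak3 (-0.17, adjusted p = 0.61) were not. Of the 34 members, 6 (Pdia3, Pdia6, P4hb, Derl1, Xbp1 and Sar1b) were higher and 3 (Syvn1, Ddit3 and Ern1) lower in all 6 settings. These were the deposited factors, both scalings, edgeR, DESeq2 and removal of a trend on transcript length and GC content. The share of all genes called in every one of these settings was not determined. With reads outside the loci 15.8% of all genes were higher, and with all reads 13.7% were lower. The counts of members called throughout are therefore not shown to exceed a background. The share of reads on the mitochondrial ribosomal RNAs mt-Rnr1 and mt-Rnr2 was 9.36 to 16.4% in GF and 1.39 to 6.32% in CV libraries, and with this share as a covariate no member was called by limma, 8 having an unadjusted p under 0.05. In the same fit none of the 11782 genes was called, and 1985 of them (16.8%) had an unadjusted p under 0.05. Of the variance of the share, 93.5% lay between the groups, and the covariate multiplied the SE of a gene by 3.48 at the median.

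**Figure D2:**
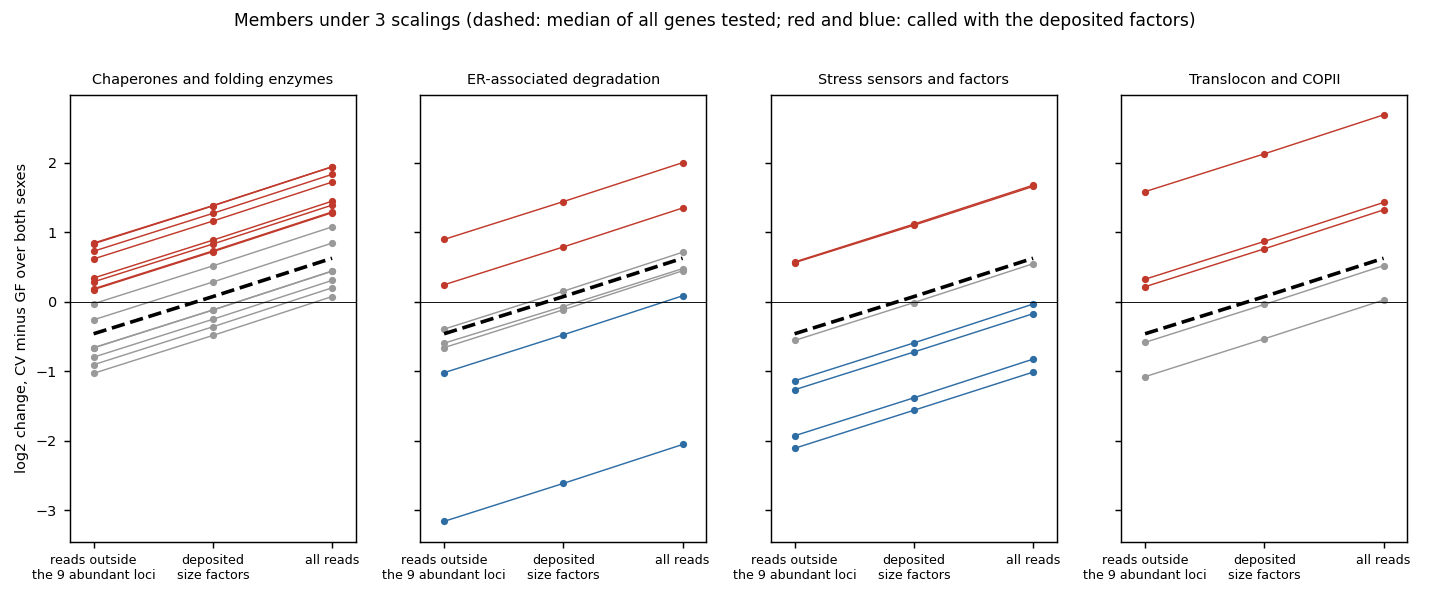
Log2 change of the members, CV minus GF over both sexes, under 3 scalings on the horizontal axis, in 4 panels by role. Lines are members, coloured by their call with the deposited factors, and the dashed line is the median of all genes tested, which runs from -0.46 through 0.07 to 0.63, so that members shift with all genes.

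The 4 members that form and rearrange disulfide bonds, P4hb, Pdia3, Pdia4 and Pdia6, rose in CV livers, and the Hsp70 and Hsp90 chaperones of the ER, Hspa5 and Hsp90b1, were not called. Pdia4 was not called by limma with reads outside the abundant loci (0.34, adjusted p = 0.231). Nor was it called after removal of the length and GC trend (0.49, adjusted p = 0.11). CV males 2 and 3 (565 and 738) lay within the GF male range of Pdia4 (494 to 807). Among related genes outside the 34, Txndc5 (log2 change 0.93, adjusted p = 0.00493), Tmx1 (1.21, adjusted p = 9.02e-05) and Erp44 (1.14, adjusted p = 6.86e-04) were higher. So were Prdx4 (1.26, adjusted p = 8.95e-05), Txndc12 (1.49, adjusted p = 3.14e-06) and Ero1l (0.79, adjusted p = 0.0109). Txndc11 (-1.48, adjusted p = 4.8e-06) was lower. Pdia5 (0.33, adjusted p = 0.173), Dnajc10 (0.22, adjusted p = 0.253) and Ero1lb (0.077, adjusted p = 0.766) were not called. In the GF males P4hb stood at 2184, 4100 and 3044 normalised read counts, in the CV males at 11490, 4009 and 4264, in the GF females at 2654, 3139 and 1643, and in the CV females at 8658, 7828 and 8768, the libraries being given in the order 1, 2, 3 here and below. All CV females lay above all GF females, whereas CV male 2 lay below GF male 2. P4hb was 2.61-fold higher in CV over both sexes (log2 change 1.38, SE 0.28, adjusted p = 4.33e-04 by limma).

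Pdia6 read 536, 906 and 849 in the GF males, 2282, 1055 and 991 in the CV males, 851, 763 and 441 in the GF females, and 1982, 2063 and 2428 in the CV females. Every CV library was above every GF library, although CV males 2 and 3 came close to the upper GF values. The change was 1.27 on the log2 scale (SE 0.24, adjusted p = 2.51e-04). Pdia3, also known as ERp57, which works on glycoproteins together with calnexin and calreticulin, stood at 1183, 2321 and 1563 in the GF males, 2011 in CV male 2, 2248 in CV male 3 and 4272 in CV male 1. In females it was 1448, 1944 and 742 in GF and 3266, 4559 and 3928 in CV. The female groups did not overlap, the male groups did, and the change over both sexes was 1.16 (SE 0.26, adjusted p = 0.00123). Catsper2 overlaps Pdia3 on the opposite strand and went the other way (-2.59, adjusted p = 5.46e-06).

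The other chaperones that rose were the lectin chaperones Calr (log2 change 0.73, adjusted p = 0.0191) and Canx (0.72, adjusted p = 0.00358), Pdia4 (0.89, adjusted p = 0.0148), the Hsp40 co-chaperone Dnajb11 (0.83, adjusted p = 0.00318) and its partner Sdf2l1 (1.38, SE 0.46, adjusted p = 0.0154). With reads outside the abundant loci none of these genes was called. Calr did not pass without GF male 1 or without GF female 3.

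Hspa5 encodes BiP, the main Hsp70 chaperone of the ER and the usual marker of the unfolded protein response. It read 2556, 4731 and 3636 in the GF males, 4502, 2077 and 2249 in the CV males, 3970, 4575 and 1903 in the GF females, and 2954, 4395 and 3418 in the CV females. The groups overlapped in both sexes. Its log2 change was -0.12 with a 95% interval from -0.68 to 0.45 (adjusted p = 0.719), which leaves room for a change of either sign. It was 0.44 with all reads and -0.66 with reads outside the abundant loci, where it was called lower (adjusted p = 0.0105).

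Dnajb9, a co-chaperone of BiP that restrains IRE1, had the largest adjusted p of the chaperones (0.786). It stood at 116, 430 and 220 in the GF males, 231, 184 and 148 in the CV males, 198, 394 and 70.9 in the GF females, and 133, 221 and 203 in the CV females. The GF libraries enclosed the CV range in both sexes, and the log2 change was -0.12 (95% interval -0.87 to 0.63). The remaining members without a call were Hsp90b1 (GRP94, -0.36), the Hsp110-type chaperone Hyou1 (-0.25), the stress-induced folding factor Creld2 (-0.48), the secreted stress factor Manf (0.29) and the co-chaperone Dnajc3 (0.52, adjusted p = 0.0506). The 15 chaperones therefore spanned log2 changes from -0.48 to 1.38.

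**Figure D3:**
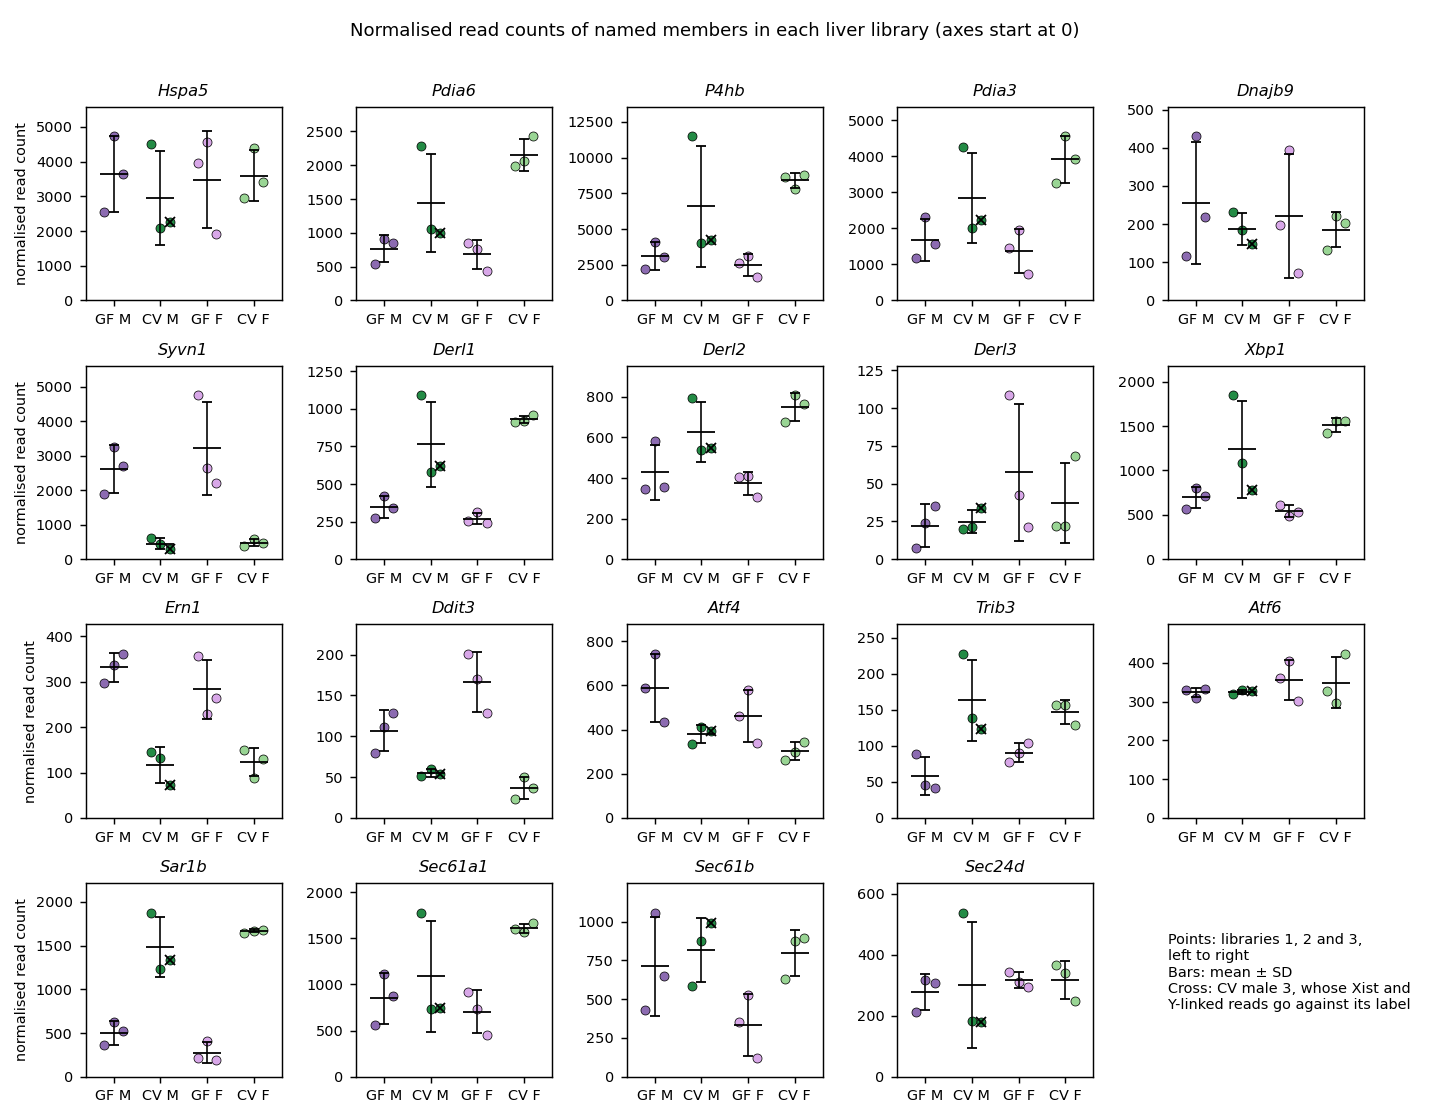
Normalised read counts of 19 named members in the 12 libraries, on linear axes that start at 0, with libraries as points and the mean ± SD of 3 libraries as bars. Syvn1, Ern1 and Ddit3 show GF points above all CV points of the same sex, Sar1b, Derl1 and Pdia6 the opposite, and in P4hb, Xbp1 and Sec61a1 CV male 1 lies well above CV males 2 and 3.

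The chaperones varied together among livers of the same group. In GF male 1 all 15 chaperones had the lowest value of the 3 GF males, and in GF male 2 all 15 had the highest. In GF female 3 all 15 were the lowest of the 3 GF females. CV male 1 was the highest of the CV males for all 15, while the CV females were less ordered, with CV female 1 lowest for 11 and CV female 3 highest for 9. Over all genes tested, GF male 1 was lowest of its group for 37.4%, GF female 3 for 38.3%, and CV male 1 highest for 43.5%. The same GF libraries were lowest for all 7 degradation genes and all 5 translocon and COPII genes, but only for 4 of the 7 sensors and factors each. These counts are a description, since the genes are measured in the same libraries and are not independent.

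The spread was uneven between members. Sdf2l1 ran from 34.5 in GF female 3 to 329 in GF male 2, a ratio of 9.53 within GF, and its ratio within CV was 2.85. For Dnajb9 the corresponding ratios were 6.06 in GF and 1.74 in CV, and for Sec61b they were 8.62 and 1.69. The pooled within-group SD on the log2 scale was 0.472 at the median of the members and 0.401 at the median of all genes tested. It ranged from 0.172 for Atf6 to 1.088 for Sdf2l1.

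**Figure D4:**
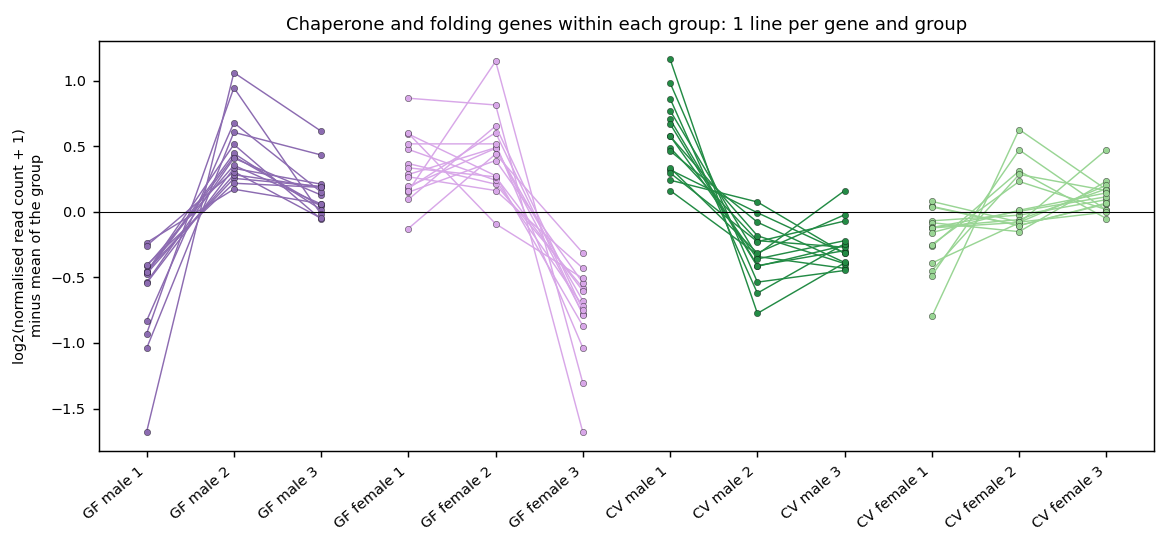
Deviation of each chaperone from its group mean on the log2(normalised read count + 1) scale, per library, with 1 line per gene and group and groups in separate colours. All 15 lines dip at GF male 1 and at GF female 3 and peak at CV male 1.

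Of the degradation genes, Syvn1 fell the most of all 34 members and the derlins Derl1 and Derl2 rose. Syvn1 (chr19:6046576-6053712, plus strand, GRCm38, GENCODE annotation) encodes Hrd1, the ubiquitin ligase at the centre of the retrotranslocation complex. Its values were 1877, 3254 and 2688 in the GF males, 617, 448 and 295 in the CV males, 4755, 2655 and 2216 in the GF females, and 380, 597 and 466 in the CV females. The lowest GF library was thus above the highest CV library in both sexes. The log2 change was -2.61 (SE 0.24, adjusted p = 7.58e-07), a CV level of 0.163 of the GF level, and it lay between -2.74 and -2.45 whichever library was left out. Mrpl49 overlaps Syvn1 on the opposite strand, and it changed by 1.33 (SE 0.17, adjusted p = 1.01e-05), the other way. Whether the authors counted reads by strand is not given in the sources used here.

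Derl1, a channel component through which proteins leave the ER, read 276, 421 and 343 in the GF males, 1091, 578 and 621 in the CV males, 257, 314 and 240 in the GF females, and 911, 918 and 957 in the CV females. No CV library overlapped a GF library, and the change was 1.44 (SE 0.19, adjusted p = 9.2e-06). Its paralogue Derl2 stood at 346, 584 and 354 in the GF males and 796, 537 and 546 in the CV males, and at 405, 410 and 307 in the GF females and 675, 809 and 767 in the CV females. Only the male groups overlapped, through GF male 2, and the change was 0.79 (SE 0.18, adjusted p = 0.00141).

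The third derlin, Derl3, was low throughout, at 7.16, 24.0 and 35.4 in the GF males, 19.8, 21.5 and 33.6 in the CV males, 109, 42.6 and 21.1 in the GF females, and 21.9, 22.2 and 68.0 in the CV females. The groups overlapped in both sexes, and the log2 change of -0.07 had a 95% interval from -0.98 to 0.84 (adjusted p = 0.9). Sel1l, the adaptor that holds Hrd1 in its complex, was lower by a small margin (-0.47, SE 0.20, adjusted p = 0.0483), and it lost this call in 9 of the 12 fits that left out 1 library. Herpud1, an organizer of the same complex (0.15, adjusted p = 0.595), and the mannosidase-like Edem1 (-0.11, adjusted p = 0.573) were not called.

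Among the sensors, Ern1 and Eif2ak3 fell and Atf6 was not called, while Xbp1, the target of the enzyme that Ern1 encodes, rose. Ern1 stood at 298, 337 and 361 in the GF males, 146, 132 and 71.8 in the CV males, 356, 229 and 265 in the GF females, and 150, 88.7 and 131 in the CV females. All GF libraries were above all CV libraries. The log2 change was -1.38 (SE 0.21, adjusted p = 3.49e-05). Eif2ak3 was low in all livers (25.4 to 131) and fell by 0.72 on the log2 scale (SE 0.25, adjusted p = 0.0197), a call that was lost without GF female 1 or without CV male 3.

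Xbp1 read 570, 808 and 710 in the GF males, 1849, 1083 and 785 in the CV males, 610, 484 and 533 in the GF females, and 1422, 1558 and 1552 in the CV females. The female groups were apart, and in males CV male 3 fell within the GF range. The change was 1.12 (SE 0.20, adjusted p = 1.63e-04), and these reads include spliced and unspliced RNA. Atf6 had the smallest spread of all members and the largest adjusted p (0.953). It was 330, 310 and 332 in the GF males, 320, 329 and 328 in the CV males, 362, 404 and 301 in the GF females, and 327, 298 and 423 in the CV females, with a log2 change of -0.01 (95% interval -0.34 to 0.31). With all reads it was 0.55 and called higher (adjusted p = 0.0142), with reads outside the loci -0.56 and called lower (adjusted p = 0.0061). After removal of the length and GC trend it was 0.64 and called higher (adjusted p = 0.00187 by limma). The call of Atf6 thus depended on the scaling and on this correction.

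The genes downstream of PERK did not move together. Ddit3 encodes CHOP, the factor tied to cell death under lasting ER stress. It read 79.7, 112 and 129 in the GF males, 51.5, 60.4 and 53.6 in the CV males, 201, 170 and 128 in the GF females, and 22.7, 49.7 and 36.7 in the CV females. The groups did not overlap, and the log2 change was -1.56 (SE 0.21, adjusted p = 1.57e-05). Mars overlaps Ddit3 on the opposite strand and changed by 0.82 (adjusted p = 0.00487).

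Atf4 stood at 588, 743 and 437 in the GF males, 334, 413 and 393 in the CV males, 462, 580 and 341 in the GF females, and 264, 300 and 344 in the CV females. CV males lay below GF males, and the females overlapped by a small margin at GF female 3 and CV female 3. The log2 change was -0.59 (SE 0.18, adjusted p = 0.0101), and with all reads it was -0.03 and not called (adjusted p = 0.891). Trib3, a pseudokinase known as a target of both ATF4 and CHOP, went the other way.

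Trib3 read 88.7, 45.3 and 41.1 in the GF males, 227, 139 and 123 in the CV males, 77.0, 90.4 and 104 in the GF females, and 157, 157 and 128 in the CV females. Every CV library was above every GF library, and the change was 1.10 (SE 0.22, adjusted p = 3.98e-04). The 7 sensors and factors thus spanned -1.56 to 1.12, with a median of -0.59.

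The largest rise of any member was that of Sar1b, the GTPase that starts COPII coat assembly and is needed for export of lipoproteins from liver and gut. The gene lies at chr11:51763687-51791925 on the plus strand. It stood at 357, 624 and 523 in the GF males, 1876, 1231 and 1336 in the CV males, 217, 412 and 192 in the GF females, and 1648, 1670 and 1683 in the CV females. The lowest CV library was above the highest GF library in each sex. The change was 2.13 (SE 0.21, adjusted p = 1.23e-06), a 4.38-fold difference, and it stayed between 2.02 and 2.30 whichever library was left out.

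Both members that encode subunits of the Sec61 channel rose. Sec61a1, the pore subunit, read 563, 1115 and 874 in the GF males, 1779, 739 and 744 in the CV males, 924, 737 and 456 in the GF females, and 1598, 1569 and 1662 in the CV females. The females were apart and the males overlapped, since CV males 2 and 3 lay within the GF range. The change was 0.76 (SE 0.25, adjusted p = 0.0146 by limma). With reads outside the abundant loci the change of Sec61a1 was 0.22 and not called (adjusted p = 0.373).

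Sec61b, the small beta subunit, was 427, 1058 and 649 in the GF males, 587, 873 and 991 in the CV males, 353, 524 and 123 in the GF females, and 630, 875 and 895 in the CV females. Only the male groups overlapped, and the change of 0.87 (SE 0.30, adjusted p = 0.0207) was not called without GF male 1 or without GF female 3. Sec61b was also not called by edgeR (0.67, adjusted p = 0.0522). By limma it was not called with reads outside the loci (0.33, adjusted p = 0.311) or after removal of the length and GC trend (0.18, adjusted p = 0.462). The COPII coat genes Sec24d and Sec23b were not called. Sec24d stood at 211, 317 and 306 in the GF males, 538, 184 and 179 in the CV males, 344, 311 and 293 in the GF females, and 368, 339 and 247 in the CV females. CV male 1 was the highest of all 12 libraries and CV males 2 and 3 the lowest. The log2 change of Sec24d was -0.04 (95% interval -0.56 to 0.48, adjusted p = 0.9), and that of Sec23b was -0.53 (adjusted p = 0.0895).

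Within females 14 members were higher and 4 lower (29.8% and 26% of all genes), and within males 3 were higher and 3 lower (14.1% and 15.4% of all genes). The calls in males were Sar1b (log2 change 1.57), Trib3 (1.50) and Derl1 (1.10) higher, and Syvn1 (-2.55), Ern1 (-1.56) and Ddit3 (-0.92) lower. In females, Syvn1 (-2.68), Ddit3 (-2.21), Ern1 (-1.20) and Eif2ak3 (-1.09) fell. The members that rose in females included Sar1b (2.69), Derl1 (1.79), P4hb (1.81), Pdia6 (1.70), Pdia3 (1.60), Xbp1 (1.48), Sec61b (1.48) and Sec61a1 (1.25), together with Sdf2l1 (1.94), Pdia4 (1.26), Dnajb11 (1.15), Derl2 (1.01), Calr (0.99) and Canx (0.82). In males no chaperone was called by limma or edgeR, 3 had an unadjusted p under 0.05, and DESeq2 called 2. By limma 1 chaperone (Pdia6) was higher in males without CV male 3, 4 were higher with all reads, and 3 were lower with reads outside the loci. In males Ddit3 was not called without GF male 2, GF male 3, CV male 1 or CV male 3. The males' count of higher members was 5 without CV male 3 and 6 without GF male 2, and with CV males 2 and 3 both left out it was 9, a fit in which CV male 1 alone stands for its group and is assumed to vary like the others. Leaving out GF female 3 took the females' higher count from 14 to 9.

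A difference of the CV effect between the sexes was not shown for any member. The interaction of condition and sex gave 0 calls by limma, edgeR and DESeq2, and 2 members, Ddit3 (-1.29, SE 0.43, adjusted p = 0.417) and Sar1b (1.11, SE 0.42, adjusted p = 0.417), had an unadjusted p under 0.05, against 11.7% of all genes. The comparison of males with females over both conditions likewise gave 0 calls by all 3 tools and 1 unadjusted p under 0.05, against 11% of all genes, where 0.73% of all genes were higher and 0.433% lower in males.

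The wider pathway was read from lists of further genes. The background for each list was 32.3% of all genes tested called higher and 28.7% called lower. Proteins that help translocation into the ER and N-glycosylation showed the most even shift, with 19 of 28 higher in CV, 0 lower and a median log2 change of 0.84 (all genes 0.07). No gene of this list fell at an unadjusted p under 0.05 or by edgeR, and DESeq2 called 1 lower. Spcs1, a subunit of the signal peptidase, had the smallest adjusted p (log2 change 2.10, SE 0.24, adjusted p = 3.88e-06). Of other folding factors 11 of 19 were higher and 4 lower (median 0.79), led by the thioredoxin-like Txndc12 (1.49, adjusted p = 3.14e-06) upward and Txndc11 (-1.48, adjusted p = 4.8e-06) downward.

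Of other degradation factors 9 of 15 were higher and 1 lower (median 0.65). Ubxn4, an adaptor of the ATPase p97, was the gene called lower (log2 change -0.91, SE 0.19, adjusted p = 5.25e-04). COPII coat genes and cargo receptors were divided, with 10 of 19 higher and 7 lower (median 0.49), beside 32.3% and 28.7% of all genes tested. Sec13 (1.61, adjusted p = 4.91e-06) and Sec24a (-1.07, adjusted p = 4.35e-05) had the smallest adjusted p in each direction.

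Of 19 targets of the integrated stress response 13 passed the filter, and the calls were 3 higher and 2 lower around a median of 0.20, beside 32.3% and 28.7% of all genes tested. Slc3a2, the heavy chain of amino acid transporters, was higher (1.17, adjusted p = 4.5e-05) and Ddit4, an inhibitor of mTORC1, was lower (mean normalised read count 48.4 in GF and 26.6 in CV, adjusted p = 0.00365). The log2 change of Ddit4 was -2.00 in males (adjusted p = 0.00197) and -0.0052 in females (adjusted p = 0.992), and its interaction with sex was not called (1.99, SE 0.53, adjusted p = 0.417). Of 9 ER-bound factors, their proteases and regulators, 2 were higher and 1 lower (median 0.08). They were Eif2s1, the translation factor subunit that PERK phosphorylates (1.07, adjusted p = 5.99e-05), Tmbim6 (1.03, adjusted p = 9.15e-04) and the ER-bound factor Creb3l2 (-1.15, adjusted p = 2.63e-05). With reads outside the abundant loci the counts were 11 higher and 5 lower for translocation, 7 and 5 for folding, 1 and 3 for degradation, 6 and 8 for COPII, 1 and 2 for stress targets and 2 and 3 for ER-bound factors, where 15.8% of all genes were higher and 44.4% lower.

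**Figure D5:**
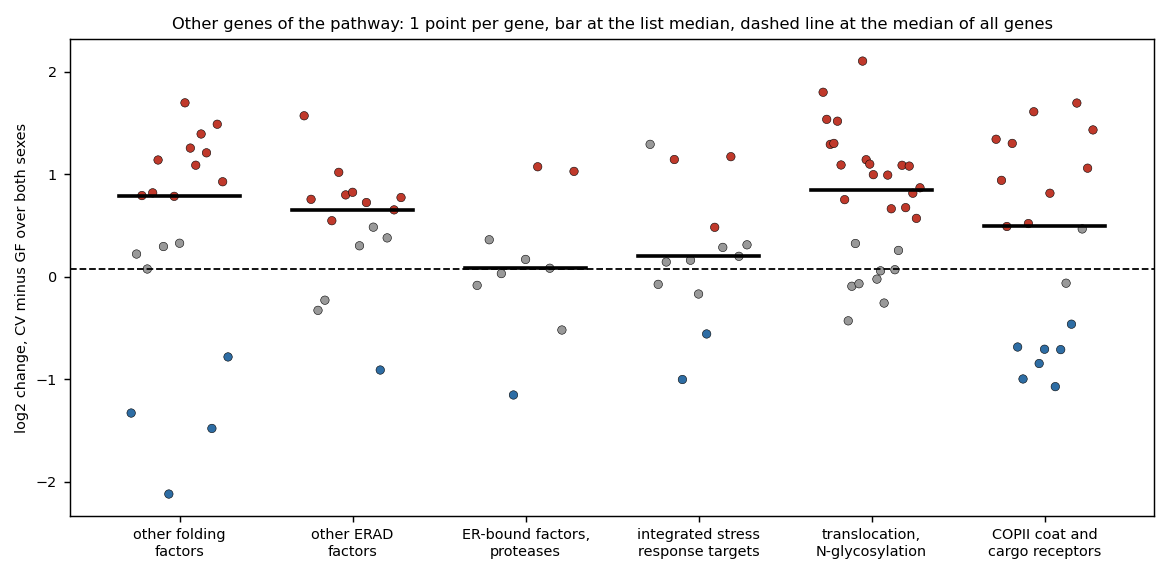
Log2 change, CV minus GF over both sexes, of the further pathway genes that passed the filter, 1 point per gene in 6 lists, with red for higher, blue for lower and grey for not called. Bars mark the list medians, from 0.08 for ER-bound factors to 0.84 for translocation, and the dashed line marks the median of all genes at 0.07.

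Of the 9 members with ERSE in their promoter, 3 were higher (Pdia6, Calr and Canx) and 1 was lower (Syvn1), beside 32.3% and 28.7% of all genes tested, and Hspa5, Hsp90b1, Creld2, Dnajc3 and Derl3 were not called, with a median log2 change of -0.07. Of 26 other genes with ERSE 6 were tested, of which 1 was higher and 2 lower. Herpud1, with ERSE-II and CARE, and Sec24d, with UPRE, were not called.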

How the data were processed

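Liver poly(A) RNA of 12 mice was sequenced by the authors with a stranded kit. Groups and replicate numbers came from the labels. The deposited unit is a normalised signal, the read count per gene divided by 1 size factor per library, and the submitters' processing notes name HTSeq 0.6.1p1, DESeq2 and build GRCm38. The aligner, the annotation and the strand setting of the counts are not given in the sources used here. The paper listed for the series describes another experiment, so no method was taken from it. Each library's values are multiples of a single step, and dividing by it gave whole reads for 100% of them (tolerance 0.01 reads). Recovered reads ranged from 5993619 to 15290835 per library, and low counts limit precision most in GF libraries.

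Main test: limma 3.58.1 (R 4.3.3) on log2(value + 1), genes with mean value of at least 10 (11782), 1 mean per group, all 12 libraries, variance trend, Benjamini-Hochberg adjustment, threshold 0.05. The pseudocount makes changes of low genes too small. Alternatives were pseudocounts of 0.5 and 5, no minimum or a minimum of 50, other scalings, edgeR 4.0.16 and DESeq2 1.42.0 on recovered reads, a replicate block, a read share as covariate and each library left out in turn. Of these, edgeR called 3549 genes higher and 3767 lower over both sexes. A loess correction for the length and GC content of transcripts, the log2 share as covariate, and leaving out CV males 2 and 3 together were chosen after seeing the data. The fitting functions were tested on simulated data in which few genes changed and the libraries did not shift in composition. These data differ in both respects, so that test does not cover them. The mouse GENCODE release M21 gave overlapping genes and lengths, and 40254 of 41128 identifiers matched it. Promoters were those of RefSeq.

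The members and lists were chosen with earlier results of these data known. Values per library are given, in each role, for the 3 members with the smallest adjusted p over both sexes, the member with the largest, and Hspa5, Xbp1, Atf4, Ddit3 and Trib3. From each further list the smallest adjusted p in each direction among called genes is named, except 1 that is left out here. Tmbim6 was named after its values were seen. So were the related genes set beside the disulfide isomerases, apart from Txndc12 and Txndc11. Log2 changes within a sex are given for members called in that sex. Each library is a separate mouse. Libraries of a group always differed by more than counting noise (lowest chi-square over degrees of freedom 13.2).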

Additional observations from a re-analysis of the deposited data

Results flagged for a closer look

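Of the 68 sets of 6 libraries examined (34 members in GF and in CV), 4 held a library whose distance from its nearest neighbour was large against the range of the set on the log2 scale, and chance gives about 1 in 20. Hsp90b1 was lowest in CV male 2, at a normalised read count of 1946. Sel1l was lowest among GF livers in GF male 1, at 745, and Sec24d likewise, at 211.3. Atf6 was highest among CV livers in CV female 3, at 423.3. No member had CV above GF in one sex and below in the other in every library, and none passed the interaction test.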

How the results depend on the processing

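The member counts (15 higher, 6 lower over both sexes, 3 and 3 in males, 14 and 4 in females) stayed within 1.5 times of these values with both other pseudocounts, both other filters and edgeR. Scaled to reads outside the abundant loci, 6 members were higher and 14 lower over both sexes, 9 were lower in males, and 6 were higher and 11 lower in females. Scaled to all reads, 3 were lower over both sexes, 9 higher in males and 2 lower in females. DESeq2 called 6 higher in males, removal of the length and GC trend gave 5 higher and 5 lower in males, and without CV males 2 and 3 there were 9 higher in males. With the mt-rRNA share as covariate 0 were higher and 0 lower in each comparison, and with its log2 value 0 were higher, 3 lower over both sexes (Ern1, Sec24d and Syvn1) and 0 lower in females, while over all genes 0 were called with the share and 139 with its log2 value. The SE of a gene was multiplied at the median by 3.48 with the share and by 2.25 with its log2 value. With 1 library left out the counts ranged from 13 to 16 higher and 4 to 9 lower over both sexes, 3 to 6 higher and 2 to 4 lower in males, and 9 to 15 higher and 3 to 5 lower in females, and calls for sex and interaction stayed at 0.

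Several log2 changes over both sexes changed sign. Scaled to all reads these were Hspa5 (0.44), Hsp90b1 (0.20), Dnajb9 (0.44), Creld2 (0.076), Hyou1 (0.31), Sel1l (0.086), Edem1 (0.45), Derl3 (0.48), Atf6 (0.55), Sec24d (0.52) and Sec23b (0.026), and scaled to reads outside the loci Dnajc3 (-0.028), Manf (-0.26) and Herpud1 (-0.39). After trend removal they were Manf (-0.19), Hyou1 (0.011), Sel1l (0.040), Herpud1 (-0.41), Edem1 (0.36) and Atf6 (0.64), with DESeq2 Sec24d (0.013), and without CV males 2 and 3 Hspa5 (0.24), Dnajb9 (0.042), Hyou1 (0.18), Edem1 (0.094) and Sec24d (0.48). With the mt-rRNA share they were Pdia4 (-1.07), Pdia6 (-0.16), P4hb (-0.37), Dnajb9 (0.14), Herpud1 (-1.25), Derl3 (0.24), Xbp1 (-0.57), Atf6 (0.33), Atf4 (0.38) and Sec61a1 (-0.91), and in females Pdia4 (-1.48), Pdia6 (-0.30), P4hb (-0.64), Xbp1 (-0.88) and Sec61a1 (-1.09). With its log2 value they were Pdia4 (-0.84), P4hb (-0.12), Calr (-0.055), Herpud1 (-1.02), Derl3 (0.34), Atf6 (0.086) and Sec61a1 (-0.55), and in females Pdia4 (-1.11), P4hb (-0.25), Calr (-0.090), Xbp1 (-0.015) and Sec61a1 (-0.55). With 1 library left out the sign of Hspa5 (-0.31 to 0.0051), Dnajb9 (-0.45 to 0.17), Herpud1 (-0.045 to 0.28), Derl3 (-0.38 to 0.24), Atf6 (-0.085 to 0.042) and Sec24d (-0.30 to 0.10) changed, none of which was called. The causes were not tested.

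With the replicate number as a block, 15 members were higher and 5 lower over both sexes, Sel1l (adjusted p = 0.0612) being lost and no other call changing. Deviations of CV and GF libraries with the same number correlated between -0.23 and 0.20, and not every library correlated best with its own number. With 3 libraries per group these values cannot show whether CV and GF libraries with the same number were paired. Between the sexes, same-numbered CV libraries correlated at 0.193, 0.118 and 0.173, each the best match, and same-numbered GF libraries at 0.059, 0.403 and 0.068, and with the block 0 members were called for sex or interaction. Over all genes the block gave 3853 higher and 3375 lower. In GF libraries fewer reads fell on genes outside the abundant loci, so small changes of low genes such as Derl3 and Eif2ak3 are the least certain. A missed threshold does not show that a gene did not differ.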
